A study of Sus scrofa with 16 samples.

Results

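Genes for the subunits of glutamate receptors, and for the auxiliary proteins that sit beside them, were examined in the hippocampus of preterm pigs with and without necrotizing enterocolitis (NEC). A list of 35 symbols fixed the members, and an entry of the deposited expression table belonged to a member when its pig gene ID carried that symbol in a reference table of names. In this way 19 of the 35 members were matched, each to a single entry, out of 22815 distinct entries. Only symbols, and no measured value, entered this rule.

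Pigs were delivered preterm by caesarean section, fed human donor milk for about a week after birth, and scored by eye for gut lesions. No NEC pigs (noNEC in the labels, n = 5) had no lesions in any gut region, Co-NEC pigs (coNEC, n = 5) had severe lesions in the colon only, and Si-NEC pigs (siNEC, n = 6) had severe lesions in the small intestine, with or without the colon. All 3 groups shared the preterm birth, the feeding that brings on NEC and the incubator housing, so No NEC pigs were not healthy term controls. There were 2 females and 3 males in the No NEC group, 2 females and 3 males in the Co-NEC group, and 3 of each sex in the Si-NEC group. Each pig gave RNA from the frozen left hippocampus as a separate animal. The labels name no litter and no exact age, and NEC arose spontaneously, so anything else that came with the diagnosis cannot be told apart from it.

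Glutamate is the main excitatory transmitter of the hippocampus. AMPA receptors carry the fast current at these synapses, kainate receptors shape transmitter release and slower currents, and NMDA receptors admit calcium and are known for their part in synaptic plasticity. NMDA receptors combine the obligatory GluN1 subunit with GluN2 or GluN3 subunits, of which GluN2B and GluN2D are typical of the immature brain and GluN2A and GluN2C gain ground as it matures. Metabotropic receptors act through G proteins, with mGlu5 in group I, mGlu2 and mGlu3 in group II, and mGlu4, mGlu6, mGlu7 and mGlu8 in group III. Transmembrane AMPA receptor regulatory proteins (TARPs), cornichons, NETO and SHISA proteins bind the receptor complexes and alter their traffic and gating.

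By class, 1 of 4 AMPA genes, 3 of 5 kainate genes, 5 of 7 NMDA genes, the delta receptor gene GRID1, all 6 metabotropic genes, 1 of 6 TARP genes and 2 of 6 other auxiliary genes were matched. The 16 members that were not matched, and are not analysed here, were GRIA2, GRIA3, GRIA4, GRIK2, GRIK5, GRIN1, GRIN2A, CACNG2, CACNG3, CACNG4, CACNG5, CACNG8, CNIH2, CNIH3, SHISA6 and SHISA9. The subunit balance of AMPA receptors and the ratio of GluN2B to GluN2A could therefore not be given. Levels are in FPKM, fragments per kilobase of gene model scaled to the mapped fragments of the library, and the length term allows levels of different genes to be set beside each other, as far as the gene models of the Sscrofa10.2 build are complete.

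No matched member was listed at 0 in any pig. The highest mean level belonged to GRIA1, which encodes the AMPA receptor subunit GluA1, at 138 ± 23.4 FPKM (SD, n = 16), higher than 96.6% of all entries above 0. CACNG7, the TARP gamma-7 gene, followed at 118 ± 9.82 FPKM, and this gap was smaller than the larger of both SDs. GRM5, the gene of mGlu5, came next at 44.9 ± 10.97 FPKM and stood clear of both neighbours in the order.

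NETO1 at 32.2 FPKM and GRM3 at 31.6 FPKM did not differ beyond their spread. NETO2 had a mean of 20.7 FPKM. From GRID1 at 16.8 FPKM down to GRIN3A at 7.42 FPKM, the order was GRID1, GRM7, GRIN2B, GRM2, GRIK4, GRIN2D, GRIK1, GRIK3 and GRIN3A, and no neighbouring pair in it was separated by more than the larger SD. GRM4 at 5.57 FPKM and GRM8 at 3.06 FPKM lay lower. GRIN2C at 0.966 FPKM and GRIN3B at 0.489 FPKM closed the order, within their spread of each other, and GRIN3B was under the minimum mean of 0.5 FPKM set for testing, which left 18 members tested.

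**Figure D1:**
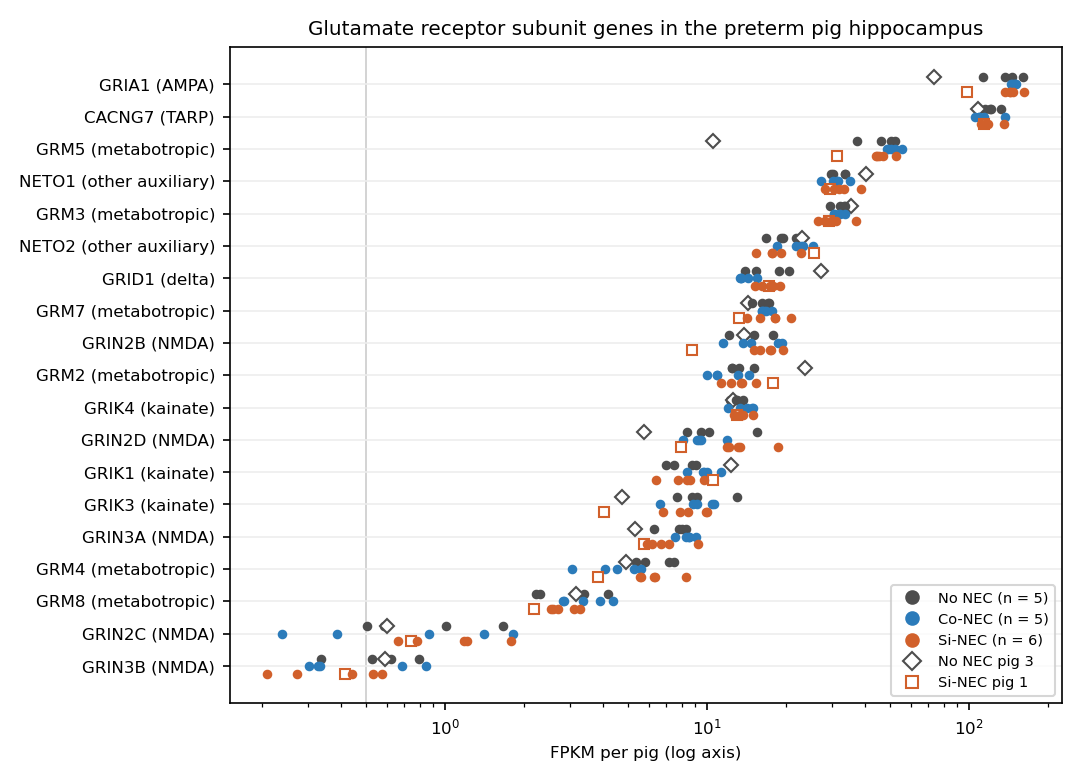
Level of each matched gene in each of the 16 pigs, in FPKM on a log axis, with the receptor class beside the gene symbol and the 3 groups drawn as separate rows of points. The grey line marks the minimum mean of 0.5 FPKM for testing, and the open diamond of No NEC pig 3 lies far to the left for GRM5, at 10.6 FPKM.

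The genes differed in how steady they were across pigs. GRIK4, the gene of the high-affinity kainate subunit GluK4, had the lowest coefficient of variation over the 16 pigs, 6.86%, and a highest value only 1.25 times the lowest. At the other end, GRIN2C varied by 51.7% and its highest value was 7.61 times its lowest. The median coefficient of variation was 18.5% for the 18 members tested and 22.4% for the 13590 entries tested.

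A pair of libraries stood apart across the transcriptome, and this touched most comparisons below. No NEC pig 3 and Si-NEC pig 1 had the highest summed FPKM, 864931 and 823320, where the other 14 pigs had sums of at least 544629 and at most 645197, and the lowest median correlations with other pigs, 0.902 and 0.933. No NEC pig 3 lay outside the range of all other pigs in 46.1% of the entries tested and in 8 of the 18 members, and Si-NEC pig 1 in 26.6% of the entries and in 5 members. No NEC pig 4 followed with 20.7% of the entries and 1 member, and no other pig exceeded 12.5% of the entries. Over the 14 other pigs, the median coefficient of variation fell to 14.3% for members and 15.96% for all entries.

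In No NEC pig 3 the members moved in both directions. GRM5 was at 10.6 FPKM, against 31.2 to 55.4 FPKM in the other 15 pigs, and GRIA1 at 73.4 FPKM, against 98.2 to 163 FPKM. GRIN2D at 5.75 FPKM and GRIN3A at 5.32 FPKM were also below every other pig. NETO1 at 40.4 FPKM, GRID1 at 27.3 FPKM, GRM2 at 23.6 FPKM and GRIK1 at 12.4 FPKM were above every other pig. Si-NEC pig 1 was the second lowest pig for GRIA1, GRM5, GRIN2D and GRIN3A and the lowest for GRIN2B, GRIK3, GRM7 and GRM8, and the highest for NETO2.

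Marker genes of the tissue also moved in these libraries. Of 9 neuronal markers 5 were matched, none at 0 in any pig, and their summed level was 1851 to 3132 FPKM in No NEC pigs, 2098 to 2209 FPKM in Co-NEC pigs and 1858 to 2622 FPKM in Si-NEC pigs, with No NEC pig 3 the highest. Si-NEC pig 1 was the highest of the Si-NEC pigs. Of 6 GABAergic markers 5 were matched, with sums of 309.9 to 482 FPKM in No NEC, 271 to 319 FPKM in Co-NEC and 273 to 395 FPKM in Si-NEC pigs, and the highest was again No NEC pig 3. Si-NEC pig 1 was again the highest of its group. The 3 glutamatergic neuron markers matched of 6 summed to 22.1 to 31.2 FPKM in No NEC pigs, with pig 3 the highest. They summed to 25.5 to 32.05 FPKM in Co-NEC and 25.4 to 29.1 FPKM in Si-NEC pigs, where pig 1 was the highest. The 3 immature neuron markers matched of 4 ran the other way, with sums of 22.1 to 30.8 FPKM in No NEC, 26.5 to 34.9 FPKM in Co-NEC and 29.8 to 36.9 FPKM in Si-NEC pigs, the lowest in No NEC pig 3. Si-NEC pig 1 was the highest pig for astrocyte and microglia markers. The 4 astrocyte markers matched of 6 summed to 944 to 1140.0 FPKM in No NEC, 983 to 1095 FPKM in Co-NEC and 892 to 1528 FPKM in Si-NEC pigs. The 4 oligodendrocyte markers matched of 6 summed to 1501 to 2806 FPKM in No NEC pigs, with pig 3 the highest. They summed to 1683 to 3138 FPKM in Co-NEC and 1370 to 2993 FPKM in Si-NEC pigs, where pig 1 was the highest. The 4 microglia markers matched of 6 summed to 44.0 to 99.8 FPKM in No NEC, where the highest was pig 3, 46.3 to 75.2 FPKM in Co-NEC and 37.8 to 113.5 FPKM in Si-NEC pigs. The 2 endothelial markers matched of 5 summed to 8.02 FPKM in that pig and to 13.3 to 28.3 FPKM in the others. Their part in the values of the receptor genes was not tested, and in whole tissue fewer cells of a type and less RNA per cell cannot be told apart. Matched neuronal, astrocyte, oligodendrocyte and microglial markers were present in each pig, except the astrocyte marker ALDH1L1, which was at 0 in at least 1 pig, and no marker list had a gene past the threshold in any comparison.

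**Figure D2:**
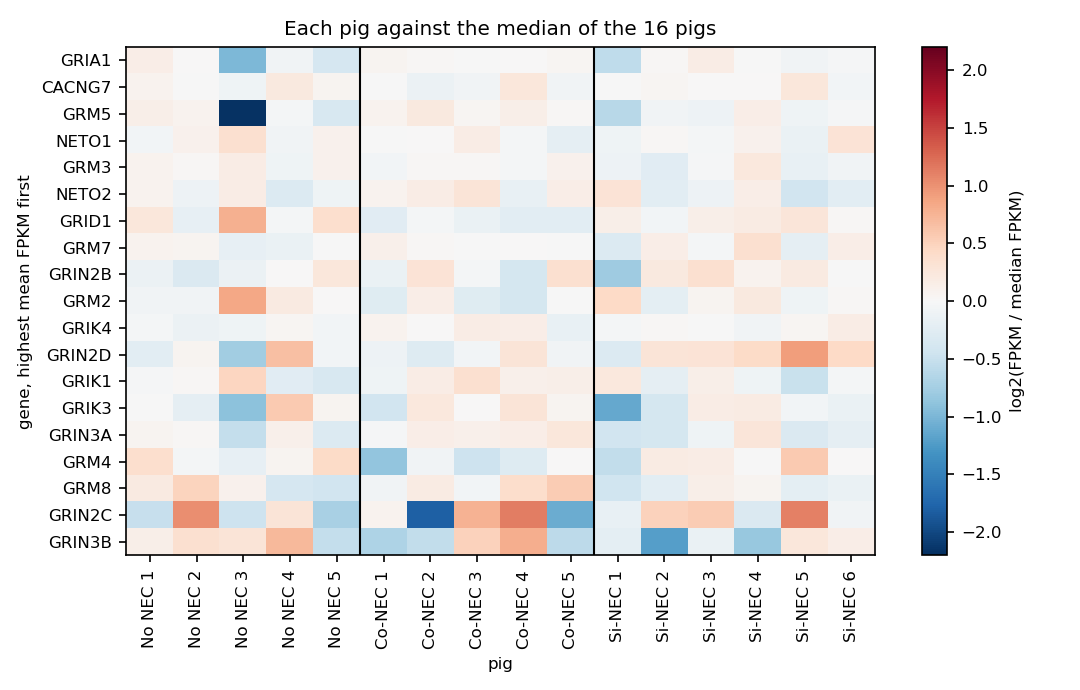
Log2 ratio of each pig's FPKM to the median FPKM of the 16 pigs, with genes in order of mean level and black lines between the groups. The column of No NEC pig 3 holds the deepest blue, for GRM5, and reds for GRID1 and GRM2, while the 5 Co-NEC columns are pale for GRIA1 and GRM5.

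Si-NEC against No NEC asks what accompanied lesions of the small intestine. Of 18 members tested, 7 had a higher and 11 a lower mean log2 level in Si-NEC pigs, with a median log2 difference of -0.04 and a range of -0.13 to 0.39, and over all entries 53.7% were higher and the median was 0.02. Without No NEC pig 3, 10 members were higher and the median was 0.01, while 59% of all entries were higher with a median of 0.04. Testing used limma on log2(FPKM + 0.5), a scale that understates changes of low genes. Benjamini-Hochberg adjustment ran over all 13590 entries, with a threshold of 0.2. The study set 0.2 on the q values of Cuffdiff, another test, and called more genes in each group comparison than limma did. No member passed the limma threshold, where 0.00736% of all entries did. No member had an unadjusted p under 0.05, where 2.61% of all entries did. Without No NEC pig 4 or without Si-NEC pig 1, 1 member did. Over all 13590 entries, 347 and 397 did in these fits, and 355 in the main fit. The exact permutation test of single genes gave 0 members with p under 0.05, its smallest p being 0.139. It was run for members and a few named genes only, so its counts here and below have no share over all entries beside them. No member separated the groups without overlap, a pattern held by 0.155% of all entries.

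GRIN2D, encoding the NMDA subunit GluN2D, had the largest difference of this comparison. Its levels in No NEC pigs were 8.38, 10.196, 5.75, 15.5 and 9.46 FPKM, and in Si-NEC pigs they ran from 7.95 to 18.7 FPKM with a median of 12.6 FPKM. A single Si-NEC pig was above all No NEC pigs, and none was below them. The fitted log2 difference was 0.39 with SE 0.24 and a 95% interval of -0.13 to 0.92, and the exact permutation p was 0.165. It was 0.23 without No NEC pig 3, 0.57 without No NEC pig 4 and 0.52 without Si-NEC pig 1.

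GRM5 had levels of 52.3, 50.4, 10.6, 46.2 and 37.3 FPKM in No NEC pigs and 31.2 to 52.8 FPKM in Si-NEC pigs, with a median of 45.0 FPKM. Apart from No NEC pig 3, the groups lay over each other. The log2 difference of 0.34 (SE 0.36, 95% interval -0.44 to 1.11) turned to -0.08 without that pig. GRIA1 showed a like pattern, at 161, 146, 73.4, 137 and 113 FPKM in No NEC pigs and 98.2 to 163 FPKM in Si-NEC pigs (median 144 FPKM). Its log2 difference of 0.17 (SE 0.20) was -0.01 without No NEC pig 3.

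GRM3, the group II receptor gene that astrocytes also express, was at 33.5, 32.3, 35.4, 29.5 and 33.7 FPKM in No NEC pigs. In Si-NEC pigs it ranged from 26.5 to 37.2 FPKM with a median of 29.6 FPKM, and 3 of 6 were below all No NEC pigs while 1 was above them. Its log2 difference was -0.12 with SE 0.10 and an interval of -0.34 to 0.10. GRIN2C, encoding the GluN2C subunit, was at 0.583, 1.67, 0.603, 1.01 and 0.502 FPKM in No NEC pigs and 0.661 to 1.79 FPKM in Si-NEC pigs (median 0.984 FPKM). The groups overlapped, the log2 difference was 0.21 with SE 0.24, and the depth of each pig behind such low values is unknown. It was 0.39 without No NEC pig 2 and 0.09 without Si-NEC pig 5.

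Intervals show what the comparison could leave unseen. The 95% interval lay within 1 log2 unit of 0 for 17 of 18 members, all but GRM5, and within 0.5 log2 units for 13. A p that misses the threshold does not show that the groups were alike.

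**Figure D3:**
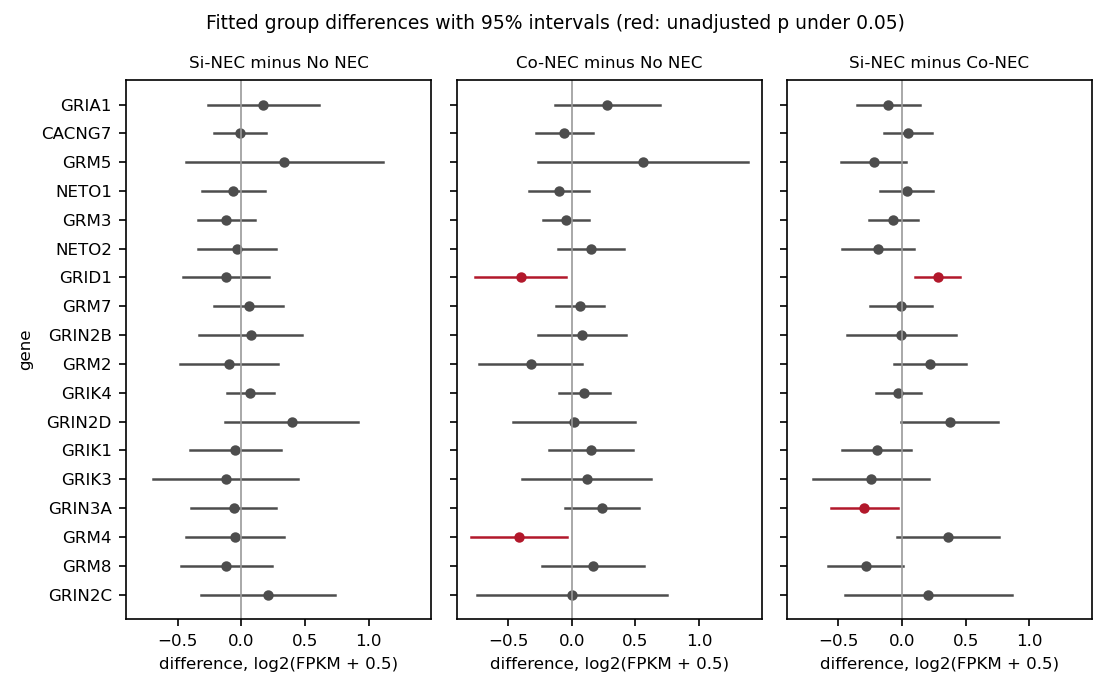
Fitted differences of the 18 members tested in the 3 group comparisons, on the log2(FPKM + 0.5) scale, with 95% intervals from limma. Intervals drawn in red belong to genes with an unadjusted p under 0.05, which are GRID1 and GRM4 in the middle panel and GRID1 and GRIN3A in the right one, and none of these passed the threshold after adjustment.

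Co-NEC against No NEC addresses lesions of the colon alone. Here 12 members had a higher and 6 a lower mean log2 level in Co-NEC pigs, with a median log2 difference of 0.07 and a range of -0.42 to 0.56, while 52% of all entries were higher with a median of 0.01. Without No NEC pig 3 the split was 9 higher and 9 lower and the median 0.003, while 57% of all entries were higher with a median of 0.03. No member passed the limma threshold, where again 0.00736% of all entries did. An unadjusted p under 0.05 was found for 2 of 18 members, GRID1 and GRM4, and for 3.44% of all entries. That count was 0 without No NEC pig 1 or pig 5 or without Co-NEC pig 1 or pig 4, 1 without Co-NEC pig 3 or pig 5, and 3 without No NEC pig 3. Over all 13590 entries, 467 had such a p in the main fit and 579 without No NEC pig 3. Leaving out each pig gave 246 to 1018 such entries, the fewest without Co-NEC pig 3 and the most without No NEC pig 2. The exact permutation test, not run over all entries, also gave 2 members under 0.05. No member separated the groups without overlap, as 0.464% of all entries did.

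GRID1 encodes GluD1, a delta receptor known for organising synapses rather than for carrying transmitter current. Its levels were 18.9, 14.0, 27.3, 15.4 and 20.5 FPKM in No NEC pigs and 13.4, 15.5, 14.3, 13.5 and 13.4 FPKM in Co-NEC pigs. The Co-NEC values were tightly grouped, and 3 of the 5 were below all No NEC pigs. The log2 difference was -0.40 with SE 0.16 (95% interval -0.76 to -0.04), limma gave an unadjusted p of 0.0319 and an adjusted p of 0.812, and the exact permutation p was 0.0397. Without No NEC pig 3, the highest of all pigs, the difference was -0.27.

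GRM4, the gene of the presynaptic group III receptor mGlu4, was at 7.16, 5.38, 4.90, 5.83 and 7.47 FPKM in No NEC pigs. In Co-NEC pigs it was at 3.07, 5.27, 4.07, 4.55 and 5.60 FPKM, and 3 of the 5 were below all No NEC pigs. The log2 difference was -0.42 with SE 0.17, the limma p was 0.0344 before and 0.812 after adjustment, and the exact permutation p was 0.0476. Leaving out No NEC pig 3 gave -0.49.

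The other genes named in this comparison had intervals that included 0. GRM5 was at 50.2, 55.4, 49.3, 52.4 and 48.6 FPKM in Co-NEC pigs, a spread of 2.77 FPKM (SD) around a mean of 51.2 FPKM, where No NEC pigs had 39.4 ± 17.1 FPKM. Its log2 difference of 0.56 (SE 0.37, 95% interval -0.26 to 1.38) was 0.15 without No NEC pig 3. GRIN3A, encoding GluN3A, which makes NMDA receptors less permeable to calcium, was at 8.04, 7.83, 5.32, 8.29 and 6.26 FPKM in No NEC and 7.54, 8.54, 8.29, 8.55 and 9.10 FPKM in Co-NEC pigs. There the log2 difference was 0.23 with SE 0.13, and 0.14 without No NEC pig 3. GRM2, the gene of the presynaptic group II receptor mGlu2, was at 12.4, 12.4, 23.6, 15.2 and 13.2 FPKM in No NEC pigs and at 10.9, 14.5, 10.9, 10.03 and 13.1 FPKM in Co-NEC pigs. Its log2 difference of -0.32 (SE 0.18) was -0.16 without that pig.

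Si-NEC against Co-NEC sets the lesion sites against each other and does not use the No NEC pigs. Of 18 members, 7 were higher and 11 lower in Si-NEC pigs, with a median log2 difference of -0.02 and a range of -0.30 to 0.38, and 50% of all entries were higher. No member passed the limma threshold, where 0.0147% of all entries did. The unadjusted limma p was under 0.05 for 2 of 18 members, GRID1 and GRIN3A, against 5.64% of all entries. The exact permutation p, not computed over all entries, was under 0.05 for 3, these and GRM5. Without Si-NEC pig 1, 5 members had an unadjusted limma p under 0.05, 9 were higher and 9 lower, the median was 0.02, and 46.5% of all entries were higher. In that fit 1204 of 13590 entries had an unadjusted p under 0.05, against 767 in the main fit. Leaving out each of the other pigs gave between 1 and 4 members under 0.05, with 1 without Si-NEC pig 2 or pig 5 and 4 without Si-NEC pig 4. Entries with such a p numbered 740 and 570 without Si-NEC pig 2 or pig 5, and 940 without Si-NEC pig 4. Again no member separated the groups, as 0.545% of all entries did. All 18 intervals lay within 1 log2 unit of 0 and 11 within 0.5.

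GRID1 ran from 15.2 to 19.1 FPKM in Si-NEC pigs with a median of 17.3 FPKM, and 5 of the 6 were above all Co-NEC pigs, the highest of which was at 15.5 FPKM. The means were 17.2 ± 1.34 FPKM (SD, n = 6) and 14.0 ± 0.884 FPKM (n = 5). Among the members this was the smallest p: the log2 difference was 0.28 with SE 0.08 and a 95% interval of 0.11 to 0.45, with a limma p of 0.00438 before and 0.851 after adjustment and an exact permutation p of 0.00649. It stayed between 0.25 and 0.31 when each pig was left out in turn. No NEC pigs, at 14.0 to 27.3 FPKM, overlapped both groups. The comparisons of GRID1 with No NEC and with Si-NEC share the Co-NEC pigs, so they are not independent.

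GRIN3A was at 5.75 to 9.27 FPKM in Si-NEC pigs (median 6.44 FPKM), where Co-NEC pigs had 7.54 to 9.10 FPKM. There, 5 of 6 Si-NEC pigs were below all Co-NEC pigs and the remaining pig was above them. The log2 difference was -0.30 with SE 0.12, with a limma p of 0.0291 before and 0.865 after adjustment and an exact permutation p of 0.0368. GRIN2D showed the reverse: Co-NEC pigs were at 9.14, 8.08, 9.47, 11.9 and 9.34 FPKM, and 5 of 6 Si-NEC pigs were above all of them, with Si-NEC pig 1 below all of them. Its log2 difference was 0.38 with SE 0.17 and an interval of -0.01 to 0.76, and the exact permutation p was 0.0736. With pigs weighted by how well they fitted the model (array weights in limma), GRIN2D alone of the members passed the threshold, with a log2 difference of 0.50 and an adjusted p of 0.19, and its adjusted p ranged from 0.19 to 1.0 over all alternatives.

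Among the metabotropic genes, GRM8, encoding the group III receptor mGlu8, was at 2.82, 3.37, 2.85, 3.90 and 4.37 FPKM in Co-NEC pigs. In Si-NEC pigs it ran from 2.19 to 3.27 FPKM with a median of 2.64 FPKM, and 4 of the 6 were below all Co-NEC pigs. No NEC pigs were at 3.41, 4.19, 3.17, 2.31 and 2.22 FPKM and overlapped both groups. The log2 difference of Si-NEC minus Co-NEC was -0.29 with SE 0.13 (exact permutation p = 0.0519). GRM4 lay between 3.83 and 8.31 FPKM in Si-NEC pigs with a median of 5.93 FPKM, and 3 of the 6 were above all Co-NEC pigs. Its log2 difference was 0.36 with SE 0.18 (exact permutation p = 0.0909).

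GRM5 is known for driving calcium release through its G protein. In this comparison 5 of 6 Si-NEC pigs were below all Co-NEC pigs, with means of 44.2 ± 7.08 and 51.2 ± 2.77 FPKM. The log2 difference was -0.22 with SE 0.12, the limma p 0.078 before and 0.867 after adjustment, and the exact permutation p 0.0498. Without Si-NEC pig 1 the difference was -0.13.

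**Figure D4:**
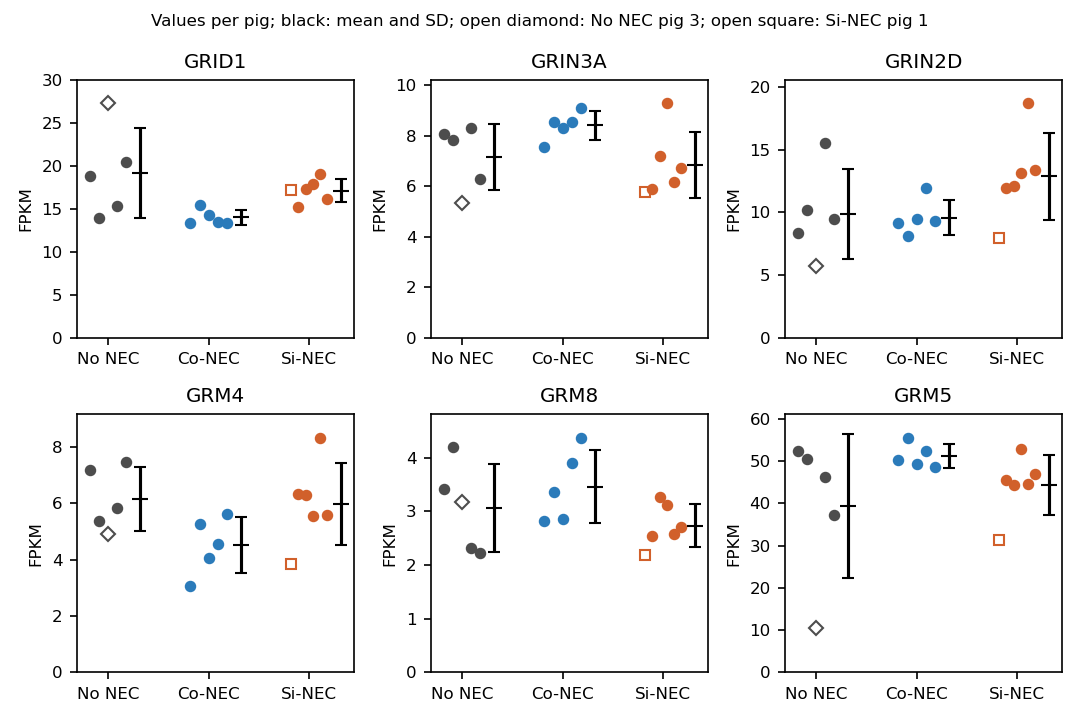
FPKM of GRID1, GRIN3A, GRIN2D, GRM4, GRM8 and GRM5 in each pig by group, with the mean and SD in black beside the points and axes that start at 0. The Co-NEC points are close together for GRID1, from 13.4 to 15.5 FPKM, and the open diamond of No NEC pig 3 is the highest GRID1 value and the lowest GRM5 value.

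The most highly expressed genes of the other classes overlapped between all groups. CACNG7 was at 122, 115, 108, 133 and 121 FPKM in No NEC pigs, at 114, 106, 109, 137 and 109 FPKM in Co-NEC pigs, and from 111 to 136 FPKM in Si-NEC pigs (median 116 FPKM). Its 95% interval lay within 0.3 log2 units of 0 in each comparison. NETO1, an auxiliary subunit of kainate receptors that also binds NMDA receptors, was at 30.2, 33.6, 40.4, 29.8 and 33.7 FPKM in No NEC and 31.4, 31.6, 35.2, 30.4 and 27.3 FPKM in Co-NEC pigs. In Si-NEC pigs NETO1 ran from 28.3 to 38.7 FPKM with a median of 31.3 FPKM, and all groups overlapped.

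GRIK4 was at 13.1, 12.3, 12.6, 13.8 and 12.9 FPKM in No NEC pigs and at 14.2, 13.4, 15.0, 14.9 and 12.01 FPKM in Co-NEC pigs. It ran from 12.7 to 15.0 FPKM in Si-NEC pigs with a median of 13.5 FPKM. Its log2 differences were 0.07 for Si-NEC and 0.10 for Co-NEC against No NEC, with SE 0.08 and 0.09. GRIA1 in Co-NEC pigs was at 151, 148, 145, 146 and 149 FPKM, a far tighter spread than the SD of 34.2 FPKM in No NEC or 21.6 FPKM in Si-NEC pigs, whose lowest values were those of the pigs that stood apart. Without pig 3 the No NEC SD was 20.1 FPKM, still wider than the Co-NEC SD of 2.74 FPKM.

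GRIN2B, encoding GluN2B, was at 13.9, 12.2, 13.8, 15.2 and 17.9 FPKM in No NEC pigs and at 13.7, 18.7, 14.7, 11.5 and 19.3 FPKM in Co-NEC pigs. It ran from 8.78 to 19.4 FPKM in Si-NEC pigs (median 16.6 FPKM), and the groups overlapped, with log2 differences of 0.07, 0.08 and -0.01 in the order of the comparisons above. Without Si-NEC pig 1, the lowest pig, the difference of Si-NEC was 0.23 from No NEC and 0.15 from Co-NEC. That of Co-NEC from No NEC ran from -0.001 without Co-NEC pig 5 to 0.18 without Co-NEC pig 4. GRM7, NETO2, GRIK1 and GRIK3 had unadjusted limma p-values of at least 0.138 in the main fits of the 3 group comparisons. Without Si-NEC pig 1, Si-NEC minus Co-NEC was -0.27 for NETO2 and -0.26 for GRIK1 (limma p 0.036 and 0.046, adjusted p 0.56). Without No NEC pig 3, Co-NEC minus No NEC was 0.27 for GRIK1 (limma p 0.037, adjusted p 0.806). Array weights also gave NETO2 and GRIK1 a limma p under 0.05 in both comparisons with Co-NEC, with adjusted p of at least 0.221. GRIN3B, under the filter, was at 0.335 to 0.796 FPKM in No NEC, 0.302 to 0.847 FPKM in Co-NEC and 0.210 to 0.577 FPKM in Si-NEC pigs.

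Balances among the matched genes of a family were computed within each pig, as shares of their summed FPKM, and are given without a test. GRIN2B made up 58.4% ± 8.85 (SD, n = 5) of the GRIN2B, GRIN2C and GRIN2D total in No NEC pigs, 59.4% ± 9.24 in Co-NEC pigs (n = 5) and 53.0% ± 4.87 in Si-NEC pigs (n = 6). GRIN2D made up 38.1% ± 7.87, 36.9% ± 6.69 and 43.4% ± 4.64, and GRIN2C 3.49%, 3.71% and 3.58%. GRIN2B and GRIN2D made up all of this total but the small GRIN2C share in each group. GRIN2A was outside the sum, so these shares cannot show how mature the subunit balance was. The group means lay within their spread of each other.

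Of the kainate genes matched, GRIK4 supplied 42.3% ± 1.51 in No NEC, 42.4% ± 3.85 in Co-NEC and 45.4% ± 3.70 in Si-NEC pigs. On average GRIK1 and GRIK3 shared the rest about evenly, at 29.3% and 27.2% over all pigs. Their shares were uneven in No NEC pig 3, at 41.7% and 15.9%, and in Si-NEC pig 1, at 38.1% and 14.6%. GRM5 supplied 33.8% ± 12.9 of the metabotropic total in No NEC, 42.8% ± 1.73 in Co-NEC and 38.6% ± 3.38 in Si-NEC pigs. Its lowest share, 11.5%, was that of No NEC pig 3, and the No NEC median was 40.6%. GRM4 supplied 5.46% ± 0.870, 3.76% ± 0.730 and 5.26% ± 1.32 in the same order of groups.

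Female and male pigs were compared with group as a covariate, over 7 and 9 pigs. Of 18 members, 9 were higher and 9 lower in females, with a median log2 difference of 0.01, where 49.2% of all entries were higher. No member passed the limma threshold, against 0.0515% of all entries, and 1 had an unadjusted p under 0.05, against 3.25%. That count was 0 without No NEC pig 2, 4 or 5, without Co-NEC pig 2 or without Si-NEC pig 2 or 5. In these fits 338 to 487 of 13590 entries had such a p, against 441 in the main fit. The member under 0.05 in the main fit was GRID1, at 15.2 ± 1.77 FPKM (SD, n = 7) in females and 18.1 ± 4.17 FPKM (n = 9) in males. Its log2 difference was -0.23 with SE 0.10, and its limma p was 0.0412 before and 1.0 after adjustment. Without No NEC pig 3, a male, it was -0.17. GRIN2B was at 14.3 ± 3.69 FPKM in females and 16.1 ± 2.27 FPKM in males, a log2 difference of -0.19 (SE 0.15) that was -0.08 without Si-NEC pig 1. GRIN3A was at 7.82 ± 1.44 FPKM in females and 7.12 ± 1.09 FPKM in males, a log2 difference of 0.14 (SE 0.11) that was 0.08 without Si-NEC pig 4.

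Other genes of the glutamate synapse were taken from 3 lists of scaffold and signalling genes, of transport and synthesis genes and of further receptor family genes, 47 in all, of which 33 genes in 34 entries were tested. None passed the limma threshold in the 3 group comparisons. An unadjusted p under 0.05 was found for 1 entry in Si-NEC against No NEC, for 0 in Co-NEC against No NEC and for 2 in Si-NEC against Co-NEC, all lower in the first group. Over all entries tested, the shares with such a p were 2.61%, 3.44% and 5.64% in the same order. The first was HOMER2, a scaffold of group I receptors, at 11.3 ± 1.83 FPKM in Si-NEC and 14.7 ± 3.51 FPKM in No NEC pigs. Its log2 difference was -0.35 with SE 0.16 (limma p = 0.0499, exact permutation p = 0.0584). The No NEC group had its highest value, 20.3 FPKM, in pig 3.

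DLG1, the gene of the scaffold SAP97 that binds GluA1, was at 16.2 ± 1.89 FPKM in Si-NEC and 19.9 ± 2.23 FPKM in Co-NEC pigs. The log2 difference was -0.29 with SE 0.11 (exact permutation p = 0.0281, limma p = 0.0192, adjusted p = 0.858). Its mean was lower in No NEC than in Co-NEC pigs, 16.1 FPKM, and No NEC pig 3 was the lowest of all pigs, at 12.4 FPKM. HOMER1, another scaffold of group I receptors, was at 14.5 ± 2.61 FPKM in Si-NEC and 17.2 ± 2.13 FPKM in Co-NEC pigs, a log2 difference of -0.26 with SE 0.14. Its limma p was 0.0835 and its exact permutation p 0.102, so HOMER1 was not among the 2 entries under 0.05. The entry under 0.05 beside DLG1 is not reported here.

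PICK1, a scaffold that binds AMPA receptor tails, was at 26.5 ± 5.07 FPKM in Si-NEC, 26.3 ± 4.08 FPKM in Co-NEC and 34.8 ± 12.7 FPKM in No NEC pigs, where pig 3 had 56.3 FPKM. The log2 difference from No NEC was -0.34 (SE 0.21) for Si-NEC and -0.35 (SE 0.21) for Co-NEC. NPTXR, the neuronal pentraxin receptor that clusters AMPA receptors, had 2 entries. The higher entry averaged 174.7 FPKM over all pigs, from 92.32 to 220.2 FPKM, with No NEC pig 3 near the low end at 94.15 FPKM. The lower entry was at 25.3 ± 37.5 FPKM in No NEC pigs, from 3.12 FPKM to 91.8 FPKM in pig 3. In Si-NEC pigs it was at 5.93 ± 5.42 FPKM, from 1.66 to 16.1 FPKM. The log2 difference of the lower entry was -1.35 with SE 0.78, and that of the higher entry is not reported here.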

How the data were processed

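Hippocampal RNA of 16 pigs was sequenced, and groups and sexes were taken from the labels. The authors trimmed reads, aligned them to Sscrofa10.2 with TopHat 2.1.1 and estimated FPKM with Cufflinks 2.2.1, and these deposited FPKM values were the starting point. Any scaling between pigs is not given in the sources used here. FPKM sums ran from 544629 to 864931 per pig. The depth of each pig is unknown, since at most 4.07% of values under 0.1 FPKM shared a ratio between pigs, so no counting error could be given.

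Of 24594 entries, 1779 identical ones were dropped. Symbols came from a reference table of names, which gave 11001 IDs a symbol. The 13590 entries that averaged 0.5 FPKM or more were tested on log2(FPKM + 0.5) with limma 3.58.1 in R 4.3.3 (lmFit, eBayes with trend), each pair of groups on its own, with Benjamini-Hochberg adjustment over all entries and a threshold of 0.2. Single genes also had two-sided exact permutation tests, whose smallest possible p is 0.00794 for 5 against 5 pigs and 0.00216 for 6 against 5. The fits were tested on simulated data. Tables were made in Python 3.11.15 with pandas 2.3.3 and figures with matplotlib 3.10.9.

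Genes named with values in each pig were the highest member of each class, GRIN2B, the 5 members with the smallest unadjusted p in each group comparison and the 3 in the sex comparison. The other glutamate genes named were among the 3 with the smallest unadjusted p per group comparison. The members and lists were chosen with earlier results of these data known. Alternatives were other pseudocounts, filters and scaling, covariates for sex and for the suffix of the pig's label (whose meaning is not given), all groups in a single fit, array weights, other eBayes settings, an adjusted p of 0.05 and leaving out each pig. Leaving out No NEC pig 3 and Si-NEC pig 1 together was added after the data were seen, as were the shares of GRIN2B, which took the place of planned shares of GRIN2A and GRIA2. The results of some genes of the other glutamate lists are not reported here.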

Additional observations from a re-analysis of the deposited data

Results flagged for a closer look

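Among 57 sets of a member in a group, 3 had a pig far from the others by Dixon's rule, where chance gives about 1 in 20, or 2.85. CACNG7 was at 137.078 FPKM in Co-NEC pig 4, with the next pig at 114.12 FPKM, and at 136.36 FPKM in Si-NEC pig 5, with the next at 118.262 FPKM. GRM2 was at 23.6015 FPKM in No NEC pig 3, with the next at 15.1638 FPKM. The low GRM5 value of that pig did not pass the rule.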

How the results depend on the processing

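The number of members past the threshold was 0 in each comparison and stayed at 0 in 95 of 96 alternative counts, including a range of 0 to 0 when pigs were left out in turn. The exception was 1 member, GRIN2D, for Si-NEC against Co-NEC with array weights (log2 difference 0.50), where the calls among all entries rose from 2 to 201. Among all entries, calls for that comparison also went from 2 to 12 without Si-NEC pig 3. They were 1 to 4 for Si-NEC against No NEC, with 4 under array weights, and 1 to 4 for Co-NEC against No NEC, with 4 when no filter was used. Of 407 alternative values of 18 single-gene results, 404 kept their direction and their side of the threshold. The reversals came without No NEC pig 3, in Si-NEC against No NEC: when pigs were left out in turn, GRM5 ranged from -0.0786 to 0.485 and GRIA1 from -0.0112 to 0.271, and both lowest values were those without that pig. The cause was not tested. The unknown depth of each pig limits the lowest genes, GRIN2C and GRIN3B, most. The planned shares of GRIN2A and GRIA2 were not run because these genes were not matched. No paired analysis was possible because each pig was a separate animal and the labels name no litter.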
